A study of Hordeum vulgare with 39 samples.

Results

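Endosperm and embryo of the barley grain (Hordeum vulgare) were compared at 32 days after pollination (DAP), the last stage sampled. The comparison used the 3 libraries labelled 32 DAP endosperm and the 3 labelled 32 DAP embryo, 6 of the 39 RNA sequencing libraries of the series, and all 83990 transcript entries of the count table. All 6 came from the six-rowed spring cultivar Morex, raised in a climate chamber, with no mutation, transgene or treatment in the labels. The 3 libraries each of endosperm and embryo at 8, 16 and 24 DAP were read, along with seed maternal tissues from 4, 8, 16 and 24 DAP, as independent measurements of the same genes. Tissues were separated by hand, and seed maternal tissues were left out at 32 DAP because they had dried. The labels do not say how many grains or plants went into a library, nor whether replicates came from separate plants. The p-values therefore measure only the spread between libraries of a group, which may be technical. For the gene tests, that spread was estimated over all 39 libraries of 13 groups, not in the 6 compared alone.

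The endosperm is the storage tissue of the cereal grain and fills with starch and with storage proteins such as hordeins. Late in grain filling its starchy cells die while the aleurone, the outer living layer, persists. The embryo carries the future shoot, root and scutellum and gains the ability to survive drying, with late embryogenesis abundant proteins and oil bodies among its known products. These gene families could not be looked up here, because the gene identifiers in the table are not paired with names and 0 of them matched the reference table. Genes are therefore described by their levels, their history and their place in the identifier series, and only 2 per direction are given by identifier. In dissected tissue, fewer cells of a type and less RNA per cell cannot be told apart.

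Total counts ran from 23334042 to 30732376 in the 6 libraries, and 35482 entries had a count in at least 1 of them. After a filter on low counts, 29594 entries, called genes from here on, were tested. Replicates of a tissue correlated between 0.987 and 0.995 (Pearson, across the 29594 genes, on log2 of CPM plus 1, where CPM is the count scaled to the library total). Against the group means, each endosperm library lay closest to the 24 DAP endosperm (0.957 to 0.967) and each embryo library to the 24 DAP embryo (0.972 to 0.980), while the correlation with the other tissue at 32 DAP was 0.851 to 0.857. No marker list by gene name could be run, so the labels were checked with genes chosen in other libraries. Of 1639 genes called higher in endosperm than in both other tissues at 8, 16 and 24 DAP, 1364 (83.2%) were called higher in endosperm at 32 DAP and 1 in embryo. Of 1531 embryo genes chosen the same way, 1162 (75.9%) were called higher in embryo at 32 DAP and 23 in endosperm. Of all 29594 genes, 19.2% were called higher in endosperm and 20.4% higher in embryo at 32 DAP. Both lists read out in the labelled direction.

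At 32 DAP the tissues differed widely. Of the 29594 genes, 11703 (39.5%) were called, 5670 higher in endosperm (19.2%) and 6033 higher in embryo (20.4%), in edgeR's quasi-likelihood test with an adjusted p under 0.05 and a log2 difference of 1 or more in size. The endosperm calls had the larger median log2 fold change, 3.96 against -2.63 for the embryo calls. Calls with means under 1 CPM, 35.9% of the endosperm and 23.9% of the embryo calls, had medians of 5.29 and -5.32. With the higher mean at 1 to 10 CPM, the medians were 3.72 and -2.60. A log2 difference of 10 or more was reached by 260 genes higher in endosperm and 89 higher in embryo. Some of these had 0 counts in the other tissue, where the model's value is not a measured fold. For 5431 genes (18.4%) the 95% interval of the log2 fold change lay between -1 and 1. The other 12460 (42.1%) were neither called nor shown to lie inside these bounds. Some of them had an adjusted p under 0.05 but a log2 difference under 1 in size.

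**Figure D1:**
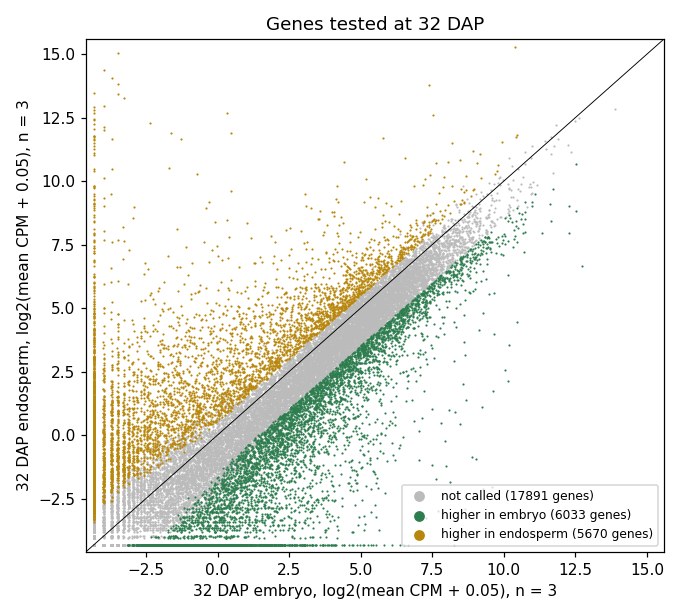
Mean level of every gene tested at 32 DAP in embryo (x axis) and endosperm (y axis), as log2 of CPM plus 0.05, n = 3 libraries each. Gold points mark the 5670 genes called higher in endosperm, green points the 6033 called higher in embryo, and grey points genes not called. Calls come from the scaled model and the axes show unscaled CPM. The band of grey points therefore lies below the diagonal, and gold points reach furthest from it at high levels.

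The direction balance depended on the scaling. The main scaling (trimmed mean of M-values, TMM) gave endosperm libraries factors of 0.734 to 0.846 and embryo libraries factors of 1.06 to 1.14. With library size alone, the median log2 fold change over all genes shifted by -0.49, and 4364 genes were called higher in endosperm and 9023 higher in embryo. The endosperm share of calls was then 32.6%, compared with 48.4% under TMM. Median-ratio factors and DESeq2 turned the majority, with 6136 against 5372 calls (53.3% higher in endosperm) and 5812 against 5317 (52.2%). In unscaled CPM, all 3 endosperm libraries lay above all 3 embryo libraries for 5128 genes (17.3%) and the reverse held for 12740 (43.0%). Directions in the text are on the TMM scale unless CPM is named.

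The endosperm pool was concentrated on fewer genes. Its 100 most abundant genes took 42.1%, 44.2% and 39.2% of the counts in replicates 1 to 3, and those of the embryo took 21.7%, 22.5% and 20.7%. The groups did not overlap, and the difference of 20.2 percentage points had an exact two-sided permutation p of 0.1, the smallest that 3 against 3 libraries allow. The most abundant gene alone took 3.94% ± 0.172 of endosperm counts and 1.52% ± 0.271 of embryo counts (mean ± SD, n = 3). Genes at 1 CPM or more numbered 16077 ± 277 in endosperm and 17119 ± 229 in embryo, again without overlap (exact permutation p = 0.1). That difference of -1042 genes was -575 at 0.5 CPM, where the libraries overlapped (exact permutation p = 0.2), and -499.7 with all libraries thinned to the smallest total and genes counted from 10 counts. At 100 CPM or more there were 1497 ± 82.3 and 2092 ± 40.6 genes, without overlap in the 6 libraries. The top 100 lists of the tissues shared 32 genes. Of the endosperm's top 100, 65 were called higher in endosperm and 1 in embryo. Of the embryo's top 100, 48 were called higher in embryo and 3 in endosperm. Of all genes, 19.2% were called higher in endosperm and 20.4% in embryo. The lists were ranked in the same libraries that made the calls, so a lean toward their own tissue was set by the choice. With the top 100 of the same tissue at 8, 16 and 24 DAP, the endosperm list shared 23, 51 and 66 genes and the embryo list 22, 45 and 80. Neither list was the closer to its own past at every stage.

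Genes called higher in endosperm made up 49.3%, 52.5% and 46.4% of the counts of the 3 endosperm libraries and 5.87%, 5.73% and 5.88% of the embryo libraries. Genes called higher in embryo made up 31.1%, 30.9% and 29.7% of embryo counts and 6.18%, 5.89% and 6.69% of endosperm counts. The endosperm calls thus covered a larger part of their tissue's counts than the embryo calls did of theirs. These shares describe the calls and were not tested, since the same libraries made the calls.

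How firmly a call stands depended on the level. Among the 3634 endosperm calls with a mean of at least 1 CPM in either tissue (19.1% of the 19048 genes at this level), 3395 (93.4%) had all 3 endosperm libraries above all 3 embryo libraries in unscaled CPM, beside 20.6% of all genes at this level. Among the 4589 embryo calls at this level (24.1%), 4575 (99.7%) had no overlap in the other direction, beside 57.3% of all. Below 1 CPM, 1109 of 2036 endosperm calls (54.5%, beside 11.4% of all) and 1291 of 1444 embryo calls (89.4%, beside 17.2% of all) had no overlap. With TMM factors applied to the levels, a reading added after seeing the data, 98.4% of endosperm calls and 98.5% of embryo calls at 1 CPM or more had no overlap, and 59.3% and 87.3% of those below it, beside 31.1%, 41.1%, 13.4% and 14.6% of all genes. The same 6 libraries made the calls, so a larger share among calls than among all genes was set by the choice. Whether the tissues differ in this share was not tested. In 347 of those 2036 low endosperm calls, more than 80% of the tissue's summed level came from 1 library, which was replicate 3 for 182 of them. With each of the 6 libraries left out in turn, 93.0% to 95.2% of the endosperm calls at 1 CPM or more were called again, and 73.1% to 84.8% of those below it. For embryo calls the ranges were 90.5% to 94.1% and 73.5% to 86.6%.

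**Figure D2:**
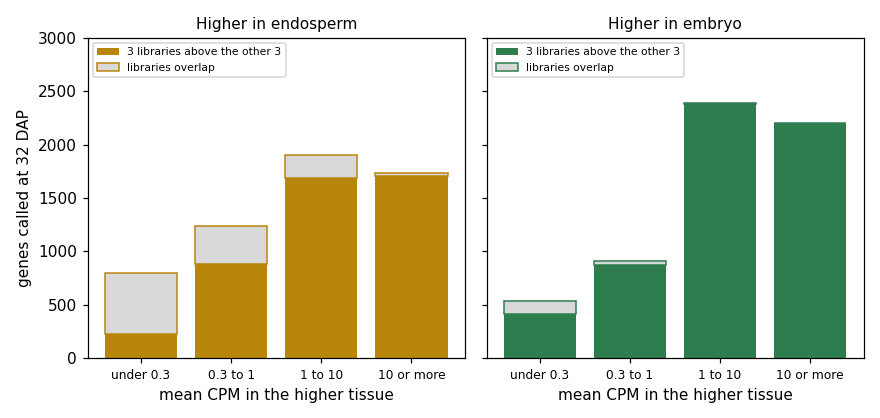
Number of genes called at 32 DAP (y axis) by mean CPM in the tissue where the gene was higher (x axis), for endosperm (left) and embryo (right). The filled part counts genes whose 3 libraries all lay above the 3 of the other tissue in unscaled CPM, and the grey part those whose libraries overlapped. In endosperm, 226 of 802 calls under 0.3 CPM had no overlap, and 1703 of 1735 at 10 CPM or more.

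Some genes were read in one tissue and at most at the floor in the other. The floor was set at 3 counts per library, equal to 0.0976 to 0.129 CPM here, and it covers counting error only. By this measure, 600 genes had at least 1 CPM in all 3 endosperm libraries and at most 3 counts in every embryo library, and 475 genes showed the reverse. The endosperm set reached far higher levels. It held 31 genes at 1000 CPM or more and took 19.8% to 25.6% of endosperm counts, while the embryo set held none at that level and took 0.320% to 0.354% of embryo counts. The most abundant endosperm gene of the set lay between 32239 and 35063 CPM against 0 to 2 counts in the embryo libraries, and so was at least 278314-fold higher. The most abundant embryo gene of the set lay between 264 and 386 CPM against 0 counts in every endosperm library, at least 2376-fold higher. The median lower bound over each set was 34.7-fold for endosperm and 24.3-fold for embryo.

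Most of these genes were already read in their tissue at 24 DAP, in libraries that did not choose them. At least 1 CPM in all 3 libraries was found at 24 DAP for 493 of the 600 (82.2%) and 426 of the 475 (89.7%). At 8 DAP the counts were 344 (57.3%) and 299 (62.9%). Members had been chosen at 1 CPM or more in that tissue at 32 DAP. The shares of all genes at this level in the 8 and 24 DAP libraries were not computed. The opposite tissue gave a different picture by stage. Of the 600, 26 were at 1 CPM or more in the embryo at 8 DAP and 10 at 24 DAP. Of the 475, 63 (13.3%) were at that level in the endosperm at 8 DAP and 1 at 24 DAP. At most 3 counts were found in all 12 embryo libraries for 358 of the 600, and in all 15 endosperm libraries for 165 of the 475. In the seed maternal tissues, 228 of the 600 (38.0%) and 157 of the 475 (33.1%) had at least 1 CPM in all 3 libraries at 24 DAP. Among all genes called higher in endosperm or embryo at 32 DAP, these shares were 55.1% and 60.8%.

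The calls at 32 DAP were then followed back to earlier stages, which share no library with them. Of the 5670 genes higher in endosperm at 32 DAP, 4137 (73.0%) had been called the same way at 24 DAP, where 19.3% of all genes were. At 16 DAP the count was 3833 (67.6%, against 23.0% of all genes) and at 8 DAP 3334 (58.8%), where 7708 of the 29594 had that call. Of the 6033 genes higher in embryo, 4611 (76.4%) had been called the same way at 24 DAP, where 22.9% of all genes were. At 16 DAP the count was 3926 (65.1%, against 25.1%) and at 8 DAP 2966 (49.2%, against 20.6%). The same-way share was smaller at each earlier stage in both directions. Calls in the other direction were most frequent at 8 DAP, with 321 of the endosperm genes (5.66%) and 471 of the embryo genes (7.81%).

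A smaller group was called at 32 DAP and at no earlier stage. It held 596 genes higher in endosperm (10.5%) and 709 higher in embryo (11.8%). For 59 and 58 of them, the change of the tissue difference since 24 DAP itself passed the test described next. The median levels of these 59 and 58 genes in the higher tissue were 6.04 and 7.63 CPM. For the others, a first call at 32 DAP does not show that the difference was new.

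The change of the tissue difference between 24 and 32 DAP was tested as an interaction in the same model. It was called for 1298 genes (4.39%), of which 784 (2.65%) moved toward endosperm and 514 (1.74%) toward embryo. The balance of the 2 directions depended on the scaling. Upper-quartile factors turned the majority, with 648 genes toward endosperm and 813 toward embryo. Library size alone gave 1154 and 301, and median-ratio factors gave 787 and 566. The total count was 853 without replicate 1 of the 24 DAP endosperm. At an unadjusted p under 0.05 there were 5744 genes, and the median standard error of this change, 0.70 on the log2 scale, was larger than that of the tissue difference at 32 DAP, 0.49. Among the 784 genes that moved toward endosperm, the median log2 change from 24 to 32 DAP was 1.47 in endosperm and -0.62 in embryo. Among the 514 that moved toward embryo, it was -1.60 in endosperm and 0.24 in embryo. In both directions the endosperm side of the difference had the larger median change. The 784 genes took 1.57% to 1.86% of endosperm counts at 24 DAP and 4.03% to 4.75% at 32 DAP, and the 514 went from 3.01% to 3.37% down to 1.46% to 1.79%. In the embryo the corresponding shares were 4.39% to 4.66% at 24 DAP and 4.33% to 4.58% at 32 DAP for the 784, and 1.54% to 1.58% and 1.72% to 1.99% for the 514. The 6 libraries at 32 DAP carry consecutive library numbers, apart from those at 24 DAP. Both tissues can therefore be compared within that run of numbers at 32 DAP, but stage and run cannot be told apart for a change within a tissue. At 24 DAP, replicate 3 carries library number 88543 in endosperm and 97733 in embryo, in different runs. The 24 DAP difference, and so the interaction, is therefore partly mixed with run. With a term for the run, 1109 genes were called in the interaction.

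**Figure D3:**
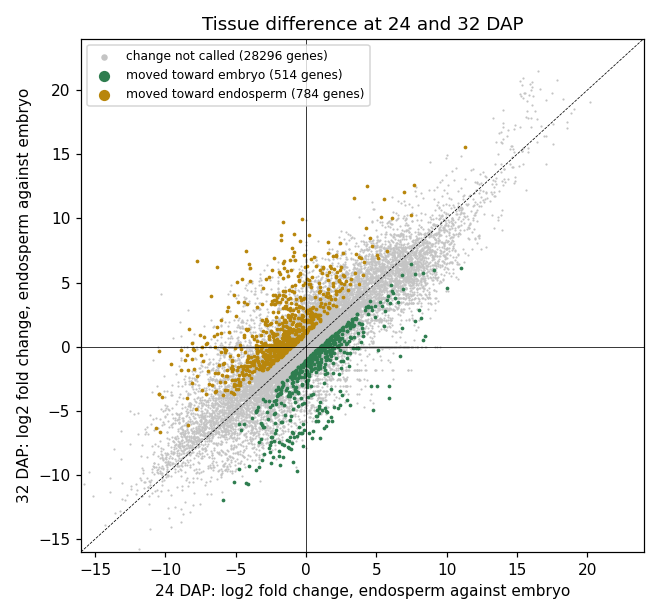
Log2 fold change of endosperm against embryo for each gene at 24 DAP (x axis) and at 32 DAP (y axis), n = 3 libraries per tissue and stage. Gold points mark the 784 genes whose difference moved toward endosperm, green points the 514 that moved toward embryo, and grey points the other genes tested; the dashed line marks equal values. Most genes lie along the line, and called changes lie on both sides of it.

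Full reversals of a call within these 8 days were few. There were 55 genes higher in embryo at 24 DAP and higher in endosperm at 32 DAP, and 13 genes the other way round. The difference at 32 DAP shares its libraries with the change, so no further count between these was made.

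The tissue lists chosen at 8, 16 and 24 DAP showed where the pools stood at 32 DAP. The 1639 endosperm genes took 25.7%, 28.4% and 31.8% of the counts in the 32 DAP endosperm libraries in rising order, against 44.0% to 46.6% at 24 DAP. In the embryo they took 1.80% to 1.91%. The 1531 embryo genes took 9.20% to 9.37% of embryo counts at 32 DAP and 2.80% to 3.29% of endosperm counts. That endosperm share lay above the 1.15% to 1.40% seen in the 24 DAP endosperm, without overlap. The 2437 genes higher in seed maternal tissues took 1.48% to 1.78% of counts in the 32 DAP endosperm, against 0.989% to 1.04% at 24 DAP, and 1.70% to 1.90% in the 32 DAP embryo. Of these maternal genes, 595 (24.4%) were called higher in endosperm and 459 (18.8%) higher in embryo, beside 19.2% and 20.4% of all genes. The part that RNA of other tissues had in the endosperm calls was not tested, and the 24 DAP libraries had helped to choose all 3 lists.

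**Figure D4:**
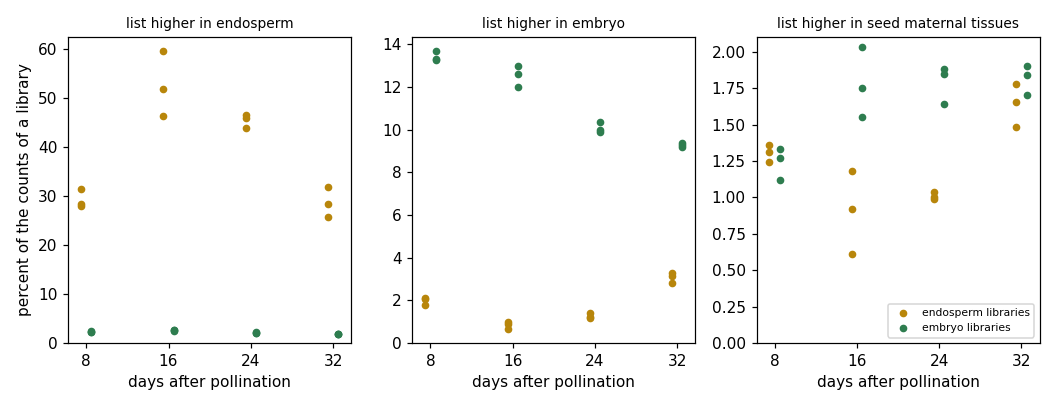
Percent of the counts of each library (y axis, a separate scale in each panel, all starting at 0) taken by genes higher in endosperm (left), embryo (middle) or seed maternal tissues (right) at 8, 16 and 24 DAP, plotted by stage (x axis, days after pollination). Each point is 1 library, gold for endosperm and green for embryo. The endosperm list fell to 25.7% to 31.8% of endosperm counts at 32 DAP, and the embryo list stood at 2.80% to 3.29% there.

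The seed maternal tissues gave a further reading. Of the 5670 endosperm genes, 2579 (45.5%) had exceeded the seed maternal tissues at 24 DAP, where 18.8% of all genes did, and 1004 (17.7%) had lain below them, where 25.6% of all did. Of the 6033 embryo genes, 3084 (51.1%) had been higher in embryo than in seed maternal tissues at 24 DAP (22.0% of all) and 830 (13.8%) lower (25.0% of all). Neither set was absent from the maternal layers: 55.1% of the endosperm genes and 60.8% of the embryo genes had at least 1 CPM in all 3 maternal libraries at 24 DAP. The same share over all genes tested was not computed.

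Called genes stood near each other in the identifier series, which carries a chromosome and a running number. The nearest tested identifier on either side of a gene higher in endosperm was called the same way in 30.8% of places, against 19.0% of all placed genes. For genes higher in embryo the share was 27.4%, against 20.5%. At 1 CPM or more the shares were 28.8% (19.0% of all) and 29.8% (24.1% of all). Near-identical neighbouring copies could share reads in the counting, and their part in this was not tested.

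Among genes of at least 1 CPM, 37 unbroken runs of 5 or more called identifiers were higher in endosperm and 29 higher in embryo, and the longest held 11 genes in each direction. The 11-gene endosperm run lies on chromosome 1H by its identifiers. Its genes had mean endosperm levels from 1.53 to 14585 CPM, and all 11 were called the same way at 16 and 24 DAP. Together they took 2.49% to 3.28% of endosperm counts and 0.00361% to 0.00390% of embryo counts. The 4 endosperm runs of 10 genes lay on 1H, 2H, 6H and 7H. The one on 1H took 1.36% to 2.20% of endosperm counts, while those on 2H, 6H and 7H took 0.0196% to 0.0234%, 0.00305% to 0.00328% and 0.0119% to 0.0138%. Shorter runs could also be abundant, such as endosperm runs of 8 and 7 genes on 1H with 1.62% to 2.05% and 0.824% to 1.10% of endosperm counts. The 11-gene embryo run, on 5H, was read at a low level, with a median of 1.90 CPM and 0.00509% to 0.00572% of embryo counts. Embryo runs of 6 genes on 6H and 3H took more, 0.668% to 0.788% and 0.190% to 0.248%. Levels thus differed between runs of like length within a tissue. The runs were picked for length or level after the calls and were not tested.

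By chromosome, genes higher in endosperm made up 18.0% to 20.9% of those tested on 1H to 7H. Identifiers without a chromosome stood apart, with 66 of 157 (42.0%) higher in endosperm and 5 higher in embryo. That excess rested on 1 library. Replicate 3 of the endosperm was the highest of the 3 for 63 of the 66 genes, and without it 12 of the 66 were called. With the most abundant of the 66 set aside, the others summed to 28.9, 22.0 and 128.9 CPM in endosperm replicates 1, 2 and 3 and to 9.35 to 12.6 CPM in the embryo libraries. Of the 157, 133 had less than 1 CPM in both tissues.

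HORVU.MOREX.r3.5HG0464410.1 was the most abundant gene of the 32 DAP endosperm and was named for that. It stood at 38504, 41405 and 38360 CPM in endosperm replicates 1 to 3 and at 1192, 1228 and 1579 CPM in the embryo. All endosperm libraries lay far above the embryo libraries (log2 fold change 5.39, SE 0.92, edgeR adjusted p = 1.59e-05). It was a late gene in both tissues. In endosperm it averaged 0.313 ± 0.438 CPM at 8 DAP, 7234 ± 4312 at 16 DAP and 24256 ± 2637 at 24 DAP (n = 3). In embryo it averaged 0.369 ± 0.531 CPM at 16 DAP and 327 ± 169 at 24 DAP. Seed maternal tissues of 24 DAP held 607 ± 394 CPM. The tissue difference was not shown to change from 24 to 32 DAP (change -1.50, SE 1.08, edgeR adjusted p = 0.504). Whether the embryo and maternal levels came from endosperm RNA was not tested.

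HORVU.MOREX.r3.5HG0491100.1 was named because, among endosperm calls of at least 100 CPM without overlap, its difference grew most since 24 DAP. It stood at 818, 681 and 875 CPM in the 32 DAP endosperm and at 0.647, 0.227 and 3.16 CPM in the embryo. The groups did not overlap, and endosperm was higher by 9.72 on the log2 scale (SE 1.29, edgeR adjusted p = 5.59e-07). At 24 DAP the order was the other way, with 2.59, 17.9 and 3.61 CPM in endosperm and 32.7, 58.3 and 29.0 CPM in embryo, although that difference was not called (log2 -1.64, SE 0.93, edgeR adjusted p = 0.143). The change of 11.35 (SE 1.55, edgeR adjusted p = 5.92e-05) had a part in each tissue. From 24 to 32 DAP the gene rose by 6.54 in endosperm (SE 1.12, edgeR adjusted p = 0.00010) and fell by 4.81 in embryo (SE 1.08, edgeR adjusted p = 0.00334), on the log2 scale. Its 4 nearest tested identifiers, 2 on each side, were all called higher in endosperm, and all 4 moved toward endosperm since 24 DAP. The next identifier averaged 1237 CPM in endosperm and 0.562 CPM in embryo, and the one after it 354 and 1.20 CPM.

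HORVU.MOREX.r3.1HG0061770.1 was the most abundant gene called higher in embryo. It stood at 7935, 8182 and 4303 CPM in embryo replicates 1 to 3 and at 149, 62.8 and 92.6 CPM in endosperm. The embryo values varied by replicate but stayed well above the endosperm values (log2 fold change -5.58, SE 0.91, edgeR adjusted p = 8.52e-06). In embryo its mean was 1.20 ± 1.10 CPM at 8 DAP, 65.3 ± 38.0 at 16 DAP and 6731 ± 1566 at 24 DAP. The endosperm level went from 9.84 ± 4.73 CPM at 24 DAP to 102 ± 44.0 at 32 DAP, a log2 rise of 3.30 (SE 0.83, edgeR adjusted p = 0.00454). The change of the tissue difference did not pass (3.16 toward endosperm, SE 1.10, edgeR adjusted p = 0.0863). The next 3 tested identifiers were called higher in embryo too, with means of 5003, 613 and 594 CPM there and 249, 28.0 and 66.8 CPM in endosperm.

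HORVU.MOREX.r3.2HG0165780.1 was named because, among embryo calls of at least 100 CPM without overlap, its difference moved most toward embryo. It stood at 472, 469 and 585 CPM in the 32 DAP embryo and at 94.2, 164 and 116 CPM in endosperm, without overlap (log2 fold change -1.52, SE 0.24, edgeR adjusted p = 2.89e-06). At 8 and 16 DAP it had been called higher in endosperm than in embryo. At 4 DAP, with no embryo libraries, it averaged 70.7 ± 15.4 CPM in endosperm and 482 ± 163 in seed maternal tissues. It averaged 3324 ± 95.7 CPM in the 8 DAP endosperm and 191 ± 37.1 in the 8 DAP embryo (log2 4.52, SE 0.27, edgeR adjusted p = 5.62e-15), and at 16 DAP the difference was 2.25 (SE 0.24, edgeR adjusted p = 2.24e-09). At 24 DAP it was 0.83 (SE 0.23, edgeR adjusted p = 0.00313), under the fold minimum for a call. The change to 32 DAP was -2.35 (SE 0.33, edgeR adjusted p = 4.62e-05). It had an endosperm part, a fall by 1.79 (SE 0.24, edgeR adjusted p = 1.69e-06), while the embryo part of 0.56 (SE 0.23, edgeR adjusted p = 0.118) did not pass.

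**Figure D5:**
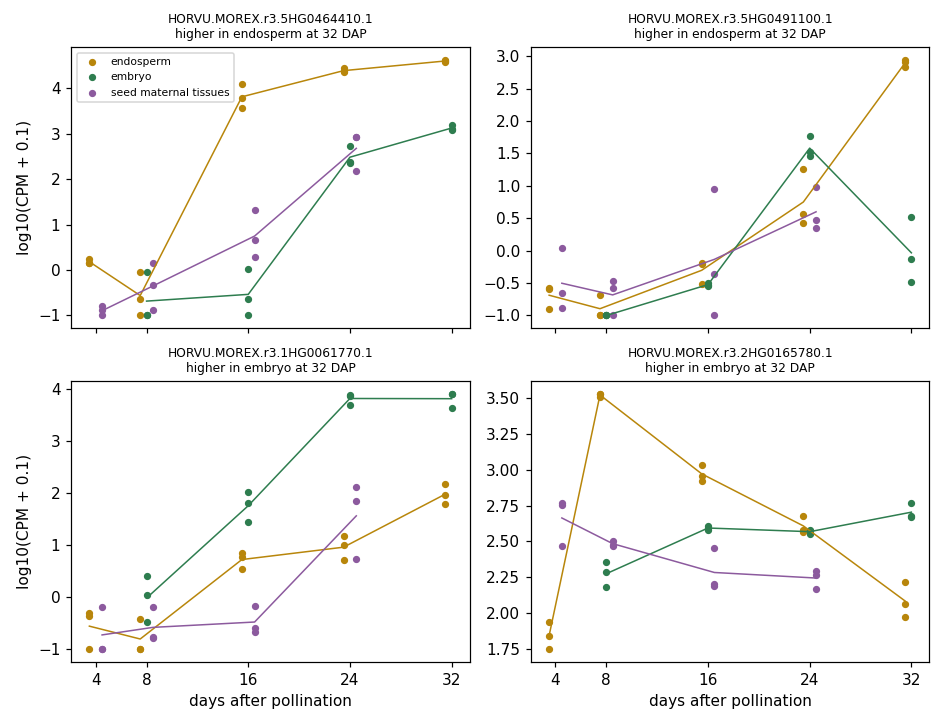
Level of the 4 named genes in every library (y axis, log10 of CPM plus 0.1, a separate scale in each panel) by days after pollination (x axis), with endosperm in gold, embryo in green and seed maternal tissues in purple. Points are libraries and lines join group means on this log scale (n = 3). The upper genes were higher in endosperm at 32 DAP and the lower genes higher in embryo. The curves of the upper right and lower right genes cross between 24 and 32 DAP.

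Counting was by transcript entry. Of 239 genes with at least 2 tested entries, 22 had every entry called the same way, 94 had some entries called in 1 direction and others not, 2 had entries called in opposite directions and 121 had none called. Reads shared between entries of a gene could have been divided or dropped, so these counts are uncertain. Summing the entries of a gene left 5654 calls higher in endosperm and 5990 higher in embryo.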

How the data were processed

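RNA was measured in 39 libraries of 13 groups, per the labels, and the 6 libraries at 32 DAP were compared. The deposited values are raw read counts, 1 whole number for each transcript entry and library, which the authors had neither normalized nor pooled. RNA was poly-A selected and read from a single end, per the labels' protocols, and RNA came from kits of 2 makers; which kit served which library is not given in the sources used here. HISAT2 2.1.0, SAMtools, Subread 1.5.2 and bcl2fastq are named in the submitters' processing notes. The genome build, the use of strand and the handling of reads with several matches are not given in the sources used here.

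CPM was computed over each library's total count. The filter on low counts was filterByExpr with the 13 groups, and the test was that of edgeR 4.0.16 under R 4.3.3, with DESeq2 1.42.0 as an alternative and limma 3.58.1 installed beside them. A single fit of all 39 libraries had 1 coefficient for each group, leaving 26 residual degrees of freedom, and used TMM factors, estimateDisp and glmQLFit in its robust form before glmQLFTest. Benjamini-Hochberg adjustment ran over all 29594 genes. Standard errors were derived from the F statistic. Single measures were compared by exact permutation tests over libraries.

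Replicates of a tissue differed beyond counting error (chi-square over its degrees of freedom 10.2 to 35.9), so none was counted as a copy. The biological coefficient of variation was 20.3% in endosperm and 20.2% in embryo. The named genes are, per direction, the most abundant called gene without overlap, and the called gene of at least 100 CPM without overlap whose difference grew most since 24 DAP; their calls were part of the choice. The planned lists of described gene families could not be run without names. The genes, lists and tests were chosen with earlier results of these data known. Other scalings, tools, filters, floors, a run term, a replicate block and each library left out were tried, as described under the processing alternatives.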

Additional observations from a re-analysis of the deposited data

Results flagged for a closer look

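The tissue difference changed between stages for 1298 genes by the interaction test from 24 to 32 DAP. For HORVU.MOREX.r3.5HG0491100.1 the change was 11.35 on the log2 scale toward endosperm (edgeR adjusted p = 5.92e-05), with all 3 endosperm libraries higher at 32 than at 24 DAP and all 3 embryo libraries lower. For HORVU.MOREX.r3.2HG0165780.1 it was -2.35, toward embryo (edgeR adjusted p = 4.62e-05). In unscaled CPM, all 3 endosperm libraries were lower at 32 than at 24 DAP and all 3 embryo libraries higher. The embryo change alone did not pass (0.56, SE 0.23, edgeR adjusted p = 0.118). Both genes were named for the size of their change of the tissue difference, so its size and test are not independent of the choice. Within a tissue, stage and run of library numbers cannot be told apart. The causes were not tested.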

How the results depend on the processing

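Calls at 32 DAP numbered 4248 to 7092 for endosperm and 4293 to 9023 for embryo under other scalings, DESeq2, no filter, a run term, summed entries, no fold minimum and the compared libraries alone; 3634 and 4589 were at 1 CPM or more, a limit chosen after seeing the data. Without each library in turn they numbered 5120 to 5517 and 5643 to 5835. The interaction count of 1298 became 1970 with DESeq2, 1992 with the 12 compared libraries alone, and 853 to 1307 without each library. Same-way neighbours of endosperm genes were 28.8% at 1 CPM or more (19.0% of all genes there), 28.0% with library size alone (14.7% of all) and 23.7% over the nearest 5 identifiers (19.0% of all). Those of embryo genes were 29.8% (24.1% of all), 37.7% (30.6% of all) and 22.8% (20.5% of all). The 600 endosperm genes at the embryo floor became 378 with a floor of 0 counts and 229 at 5 CPM, and the 475 embryo genes became 788 at 0.5 CPM and 110 at 5 CPM; where not stated, these counts stayed within 1.5 times. The log2 fold changes of the 4 named genes kept their direction and call under all 16 alternatives run for each. The causes of these differences were not tested.

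Deviations of same-numbered libraries correlated at -0.04, -0.07 and -0.08 across 12502 genes, and those of other-numbered libraries at -0.04 to 0.08. No positive pairing by replicate number was seen. These values cannot show whether libraries shared plants or grains, because deviations from a mean of 3 libraries constrain each other. With the replicate block, in the compared libraries alone, 4027 and 4047 genes were called at 32 DAP and 1669 in the interaction, against 4248, 4293 and 1992 in the same libraries without it. Depth limits what can be said of genes under 1 CPM, where the median standard error was 1.29 on the log2 scale.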
